A study of Mus musculus with 22 samples.

Results

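The collagen genes were followed through the RNA-sequencing data of thymus, cerebrum and cerebellum from Tol and WT mice. A gene was counted as a collagen when it was protein coding and its GRCm38 symbol was Col, a number, a and a number. Of the 34585 rows of the count tables, 34530 had a GENCODE entry, 21863 of these were protein coding, and 44 were collagens. The 44 genes fell into fibrillar collagens (11 genes), type IV collagens of basement membranes (6), type VI collagens (6), short chain and anchoring collagens (4), fibril-associated collagens with interrupted helices, or FACIT (9), transmembrane collagens (4), multiplexins (2) and other collagens (2).

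Tol mice are C57BL/6 animals that carry an artificial open reading frame, Tol, in which fragments of genes for fluorescent proteins, firefly luciferase and Cre recombinase are joined in scrambled order. The cassette, driven by the ubiquitous CAG promoter, was placed 3′ of the collagen gene Col1a1 in C57BL/6J embryonic stem cells by exchange of a recombinase-flanked cassette, and chimeras made from PCR-screened clones were crossed with C57BL/6JRj mice. Per the study's methods, Tol animals were heterozygous for the cassette and WT animals were littermates without it. Each organ gave 4 WT libraries, and thymus and cerebrum 4 Tol libraries each, whereas cerebellum gave 2 Tol libraries. The labels give neither age, sex nor treatment, the study gives an age range for its animals as a whole only, and the labels do not say whether organs with the same number came from the same mouse, so the p-values measure the spread between these libraries.

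Collagens are secreted or membrane-bound proteins whose chains wind around each other into a rope-like helix before they leave the cell. The fibrillar types form the cables of connective tissue, type IV forms the sheet beneath epithelia and around vessels, type VI forms beaded filaments, and FACIT collagens decorate fibrils. In brain, vessels, meninges and some neurons make collagens, and in thymus the capsule, septa and vessels are rich in them.

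The position of the cassette makes Col1a1 the member nearest to the transgene. Col1a1 (ENSMUSG00000001506), a chain of type I collagen, lies on the plus strand at chr11:94936224-94953042 (GRCm38). Col1a2 (ENSMUSG00000029661), which supplies the partner chain of the same protein, lies on another chromosome at chr6:4504814-4541544 and therefore served as an internal comparison. Several other collagens are neighbors of one another. Col4a1 (chr8:11198423-11312826, minus strand) and Col4a2 (chr8:11312805-11449287, plus strand) are head to head, as are Col4a4 (chr1:82448423-82586849, minus strand) with Col4a3 (chr1:82586921-82722059, plus strand) and Col4a6 (chrX:141165403-141474076, minus strand) with Col4a5 (chrX:141475385-141689234, plus strand). Col6a4, Col6a5 and Col6a6 lie side by side on chromosome 9 between 105687809 and 106096783, and Col3a1 and Col5a2 are neighbors on chromosome 1.

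Promoter windows of 300 bases, running from 250 bases before to 50 bases after the annotated RefSeq start (GRCm38.p6), were at hand for 35 of the 44 genes, with 38 windows in all. Col1a1, Col2a1, Col4a3, Col5a2, Col9a3, Col12a1, Col14a1, Col22a1 and Col26a1 had no entry. The windows of Col4a1 and Col4a2 are shown first because these genes share a start region and their levels are compared in every organ. Capitals mark the 78 bases, chr8:11312777-11312854, that both windows hold, read from opposite strands. The starts of the genes, at 11312826 and 11312805, lie 21 bases apart.
Col4a1 (chr8:11312777-11313076, minus strand): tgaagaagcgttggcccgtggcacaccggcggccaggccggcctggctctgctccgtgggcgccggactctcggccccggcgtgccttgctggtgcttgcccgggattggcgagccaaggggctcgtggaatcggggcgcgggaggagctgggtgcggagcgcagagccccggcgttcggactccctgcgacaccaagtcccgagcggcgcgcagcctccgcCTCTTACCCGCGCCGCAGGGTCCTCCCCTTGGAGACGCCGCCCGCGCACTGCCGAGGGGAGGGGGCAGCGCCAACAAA
Col4a2 (chr8:11312555-11312854, plus strand): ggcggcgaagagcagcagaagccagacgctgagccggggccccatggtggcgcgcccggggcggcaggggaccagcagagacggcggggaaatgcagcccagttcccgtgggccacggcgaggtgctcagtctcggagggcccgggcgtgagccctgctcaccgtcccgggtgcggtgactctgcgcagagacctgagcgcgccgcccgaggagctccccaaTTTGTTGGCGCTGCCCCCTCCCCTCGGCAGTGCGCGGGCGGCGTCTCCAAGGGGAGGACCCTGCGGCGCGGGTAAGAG

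The windows of Col1a2, Col3a1 and Col25a1 are shown because the ratio of type III to type I collagen and the level of Col25a1 set the organs apart below. Capitals mark matches, on either strand, to the TATA box core TATAAA (reverse TTTATA), the CCAAT box CCAAT (reverse ATTGG) and the GC box GGGCGG (reverse CCGCCC), none of which overlap one another here. Col1a2 held 2 matches to CCAAT and 2 to GGGCGG, Col3a1 held 1 match to TATAAA, and Col25a1 held 1 match to CCAAT and 2 to GGGCGG.
Col1a2 (chr6:4505368-4505667, plus strand): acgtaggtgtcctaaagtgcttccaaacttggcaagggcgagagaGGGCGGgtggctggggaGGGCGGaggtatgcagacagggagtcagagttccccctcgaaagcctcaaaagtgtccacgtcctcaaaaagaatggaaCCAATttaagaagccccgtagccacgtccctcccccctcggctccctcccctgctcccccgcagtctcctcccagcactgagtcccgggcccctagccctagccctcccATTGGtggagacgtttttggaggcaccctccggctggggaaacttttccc
Col3a1 (chr1:45311288-45311587, plus strand): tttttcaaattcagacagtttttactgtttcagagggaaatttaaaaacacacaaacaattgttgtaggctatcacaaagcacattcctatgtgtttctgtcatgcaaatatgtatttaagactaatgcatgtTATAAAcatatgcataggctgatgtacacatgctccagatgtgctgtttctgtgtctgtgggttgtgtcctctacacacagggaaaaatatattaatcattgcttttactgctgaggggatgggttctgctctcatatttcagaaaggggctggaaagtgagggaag
Col25a1 (chr3:130180595-130180894, plus strand): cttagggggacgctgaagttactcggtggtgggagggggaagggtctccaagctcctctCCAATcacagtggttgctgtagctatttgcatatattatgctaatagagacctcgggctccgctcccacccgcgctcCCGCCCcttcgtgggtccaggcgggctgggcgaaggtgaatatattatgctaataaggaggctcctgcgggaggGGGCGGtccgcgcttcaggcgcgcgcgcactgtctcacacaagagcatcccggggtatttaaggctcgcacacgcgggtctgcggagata

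Across the 38 collagen windows, TATAAA was found in 5 (13.2%), against 13.6% of the 32851 promoters in the table. CCAAT was found in 13 collagen windows (34.2%) and in 37.4% of all promoters. GGGCGG was found in 23 collagen windows (60.5%) and in 35.7% of all promoters. These counts describe letters in the windows and were not tested. The RefSeq starts of Col1a2 and Col25a1 used here lie inside the longer GENCODE gene bodies, so that other starts of these genes are not shown.

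Library totals ran from 14543698 to 34776973 estimated counts. The Tol transcript was present in every Tol library and nearly absent from WT: it had 448 to 1023 counts in thymus Tol, 2240 to 3520 in cerebrum Tol and 3479 to 4628 in cerebellum Tol, against 0 to 2 counts in any WT library. Marker genes matched the labelled organs, with a summed level of 7 thymocyte genes of 7363 to 10280 CPM (counts scaled to library size) in thymus and of 4 forebrain neuron genes of 275.6 to 369.8 CPM in cerebrum, and every one of these markers was at 3 counts or more in some library of its organ. Cerebellum held libraries that stood apart. Its 5 cerebellar neuron genes summed to 199.0 CPM in Cerebellum Tol 2 and 1425 CPM in Cerebellum WT 2, against 2785 to 3349 CPM in the other 4 libraries. The 4 forebrain neuron genes summed to 3.872 to 7.957 CPM in the 2 Tol libraries. The 6 choroid plexus genes summed to 1324 CPM in Cerebellum WT 2 and 4762 CPM in Cerebellum WT 4, against 19.18 to 34.97 CPM in the other 4. In Cerebellum Tol 2, 4 of the 5 cerebellar neuron genes were the lowest of the 6 libraries, whereas Barhl1 was the highest, at 24.92 CPM against 10.85 to 21.49 CPM. The main cerebellum values are therefore also given without Cerebellum Tol 2 or without WT 2 and WT 4. In whole-tissue RNA, fewer cells of a type and less RNA per cell cannot be told apart.

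Transcripts of most collagens were detected in all 3 organs. With 3 counts taken as the floor of detection, 40 of 44 collagens reached the floor in every thymus library, 43 in every cerebrum library and 41 in every cerebellum library. Col4a3, Col11a1, Col13a1 and Col24a1 fell under the floor in some thymus libraries, Col10a1 in some cerebrum libraries, and Col6a5, Col10a1 and Col28a1 in some cerebellum libraries. No collagen was under the floor in every library of an organ.

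**Figure D1:**
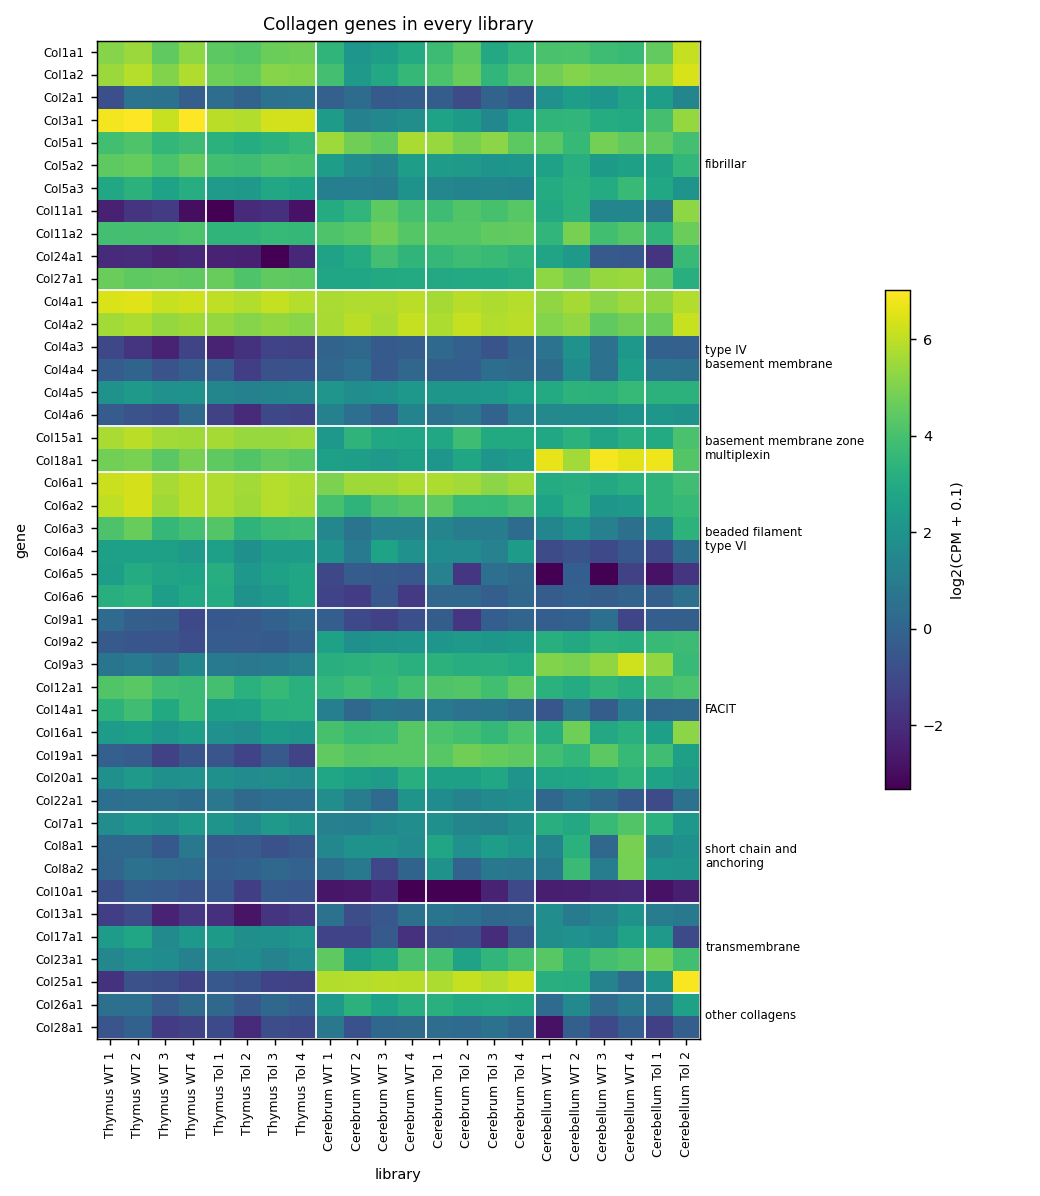
Level of each of the 44 collagen genes in each of the 22 libraries, as log2 of CPM plus a pseudocount of 0.1, with genes in rows grouped by structural class and libraries in columns grouped by organ and genotype. Cerebellum Tol 2 differs from the other cerebellum libraries in genes such as Col25a1 (121.4 CPM) and Col18a1 (18.83 CPM).

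The first question was how the collagen repertoire differed between the organs of WT mice. All collagens together amounted to 716.6 ± 118.4 CPM (SD, n = 4) in WT thymus, 480.9 ± 45.27 CPM in WT cerebrum and 539.8 ± 56.63 CPM in WT cerebellum. In thymus, fibrillar collagens made up 38.5% ± 2.7 of this sum, type VI 23.3% ± 1.5 and type IV 18.9% ± 1.5 (SD, n = 4 for each). In cerebrum, type IV (25.2% ± 1.8) and fibrillar collagens (24.2% ± 2.5) were followed by FACIT (15.4% ± 0.89) and transmembrane collagens (15.3% ± 1.3). In cerebellum, fibrillar collagens took 30.4% ± 2.8, FACIT 18.7% ± 1.8, multiplexins 18.5% ± 5.7 and type IV 17.2% ± 2.9. Without the choroid plexus-rich WT 2 and WT 4, the cerebellum shares were 30.9% to 31.0% for fibrillar collagens, 16.6% to 19.3% for FACIT, 21.8% to 24.2% for multiplexins and 14.6% to 17.3% for type IV (n = 2). Type VI thus held its highest share in thymus, transmembrane collagens in cerebrum, and multiplexins in cerebellum.

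**Figure D2:**
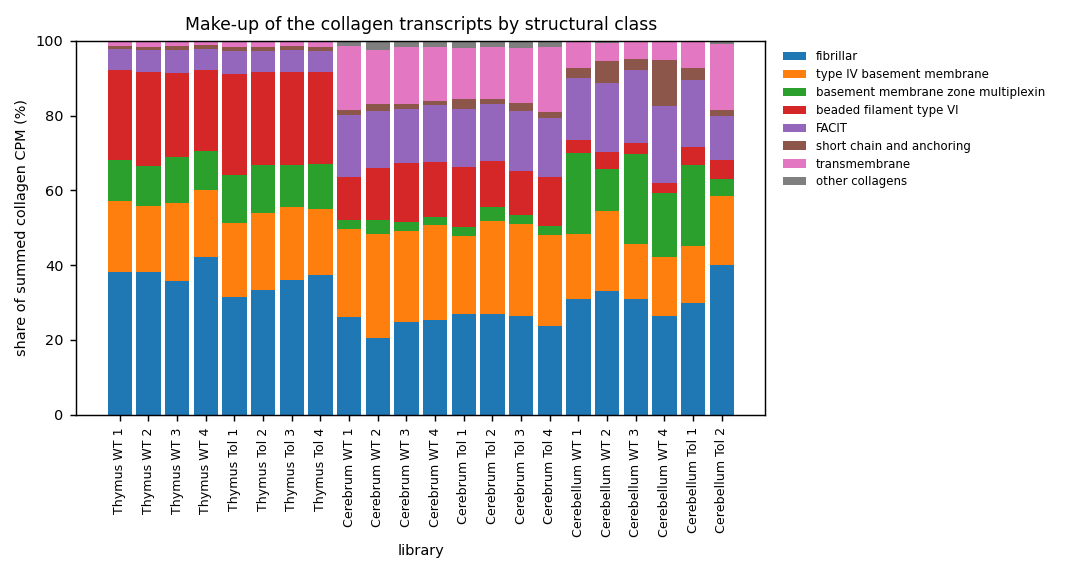
Share of the summed collagen CPM taken by each structural class (percent, y axis) in each of the 22 libraries (x axis), as stacked bars that start at 0. Type VI takes 23.3% in WT thymus and 3.47% in WT cerebellum on average, and multiplexins take 2.65% in WT cerebrum and 18.5% in WT cerebellum.

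Per kilobase of transcript, the scale on which different genes can be set side by side, Col3a1 led in WT thymus with a level of 19.87 ± 4.93 CPM per kb (SD, n = 4), followed by Col6a1 at 16.21 ± 3.31 and Col6a2 at 13.77 ± 3.08, whose SDs span the gaps between these neighbors. Col3a1 encodes type III collagen of reticular fibers. In WT cerebrum the highest levels per kb belonged to Col6a1 (10.95 ± 2.26), Col4a2 (9.038 ± 1.26), Col25a1 (8.809 ± 0.336) and Col4a1 (8.407 ± 0.633), which likewise did not differ beyond their spread from one neighbor to the next. Col25a1 encodes a membrane-bound collagen of neurons. In WT cerebellum, Col18a1 (16.34 ± 5.42) and Col9a3 (14.79 ± 7.21) had the highest levels per kb, with overlapping spread, and Col4a1 came next at 6.508 ± 0.842. In WT 1 and WT 3 alone the order was the same, at means of 19.68, 11.87 and 5.842 CPM per kb, but the ranges of Col18a1 (18.39 to 20.98) and Col9a3 (10.95 to 12.78) did not overlap. Col18a1 is a multiplexin of basement membranes and the source of endostatin, and Col9a3 supplies a chain of type IX collagen.

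In the edgeR quasi-likelihood fit over the 12 WT libraries, a gene was called when its Benjamini-Hochberg adjusted p was under 0.05 and its log2 fold change over 1 in either direction. Between thymus and cerebrum, 15 of 44 collagens were called higher in thymus (29.7% of all 17413 genes tested were called higher) and 13 were called lower (30.2% of all genes). The collagen counts were thus near those of all genes. The median log2 difference, thymus minus cerebrum, was 0.22 over the collagens and 0.06 over all genes. With the Tol libraries of the same organs in place of WT, the median changed sign to -0.66, 21 collagens had higher and 23 lower estimates, and 30 were called, 13 higher and 17 lower, of which 26 were shared. In that fit 11123 of all 18377 genes tested were called. The 3 comparisons of organs share their WT libraries and are given side by side.

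The most extreme difference upward was that of Col3a1. Col3a1 stood at 114.6, 129.7, 70.64 and 127.2 CPM in WT thymus libraries 1 to 4 and at 5.097, 2.251, 2.702 and 3.357 CPM in WT cerebrum libraries 1 to 4. The groups were far apart, and the log2 difference was 5.05 ± 0.272 (SE; adjusted p = 1.54e-09). Col6a6, a chain of type VI collagen, followed with levels of 5.486 to 10.17 CPM against 0.2398 to 0.6005 CPM (log2 difference 4.49 ± 0.296, adjusted p = 1.19e-08). Col17a1, the hemidesmosome collagen of epithelia, was higher in thymus by 3.70 ± 0.397 (adjusted p = 1.58e-06). Col6a5 and Col6a3, further type VI chains, were higher by 3.50 ± 0.651 and 2.98 ± 0.325 (adjusted p = 0.000245 and 1.89e-06). Col10a1, known from growth-plate cartilage, was higher by 3.28 ± 0.461 (adjusted p = 2.11e-05) but it had at most 2 counts in any WT cerebrum library and its fitted fold is therefore no bound.

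Downward, Col25a1 was the most extreme. It reached 56.66, 58.02, 61.91 and 59.53 CPM in WT cerebrum libraries 1 to 4 and 0.188, 0.4843, 0.4658 and 0.329 CPM in WT thymus libraries 1 to 4. The cerebrum values lay within a narrow band, and the log2 difference was -7.31 ± 0.638 (SE; adjusted p = 2.02e-07). The minor fibrillar collagens Col11a1 and Col24a1 were lower in thymus, with log2 differences of -6.67 ± 0.683 and -6.22 ± 0.859 (adjusted p = 1.01e-06 and 1.79e-05), and both had libraries under the floor there. Col19a1, a FACIT collagen made by interneurons, was lower as well (-5.09 ± 0.268, adjusted p = 1.24e-09). Col9a2 of type IX collagen and Col26a1 had log2 differences of -2.97 ± 0.21 and -2.74 ± 0.359 (adjusted p = 2.41e-08 and 1.09e-05).

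By class, 6 of 11 fibrillar collagens were called higher in thymus than in cerebrum and 3 lower. Of the 6 type VI chains, 4 were called higher and 0 lower, and both multiplexins, Col15a1 (2.89 ± 0.218) and Col18a1 (2.35 ± 0.252), were called higher. Type IV went the other way for Col4a3 and Col4a6, which were called lower, while the vessel chain Col4a1 missed the minimum fold with a log2 difference of 0.57 ± 0.105. FACIT had 4 called lower and 1 higher, the tendon and skin collagen Col14a1 (2.92 ± 0.376). Transmembrane collagens had 3 called lower, Col13a1, Col23a1 and Col25a1, against Col17a1 higher. The split of calls moved, and the median rose to 1.58, when the dependence of the counts on transcript length and GC content was removed library by library, with 25 higher and 8 lower in place of 15 and 13, and 23 of the 28 calls were shared. In that fit 11010 of all 17413 genes tested were called.

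Cerebellum differed from cerebrum in 24 of 44 collagens. In WT, 16 were called higher in cerebellum, against 8.34% of all genes tested, and 8 were called lower, against 10.2% of all genes. Col18a1 stood at 102.9, 47.64, 117.4 and 97.78 CPM in WT cerebellum libraries 1 to 4 and at 5.801, 5.532, 4.624 and 5.755 CPM in WT cerebrum libraries 1 to 4. Library 2 was the lowest of these cerebellum libraries, and none overlapped the cerebrum. It carried choroid plexus, the highest oligodendrocyte signal (13910 CPM) and the lowest cerebellar neuron signal of the WT cerebellum libraries (1425 CPM). The part of these signals in its Col18a1 level was not tested. The log2 difference was 4.06 ± 0.262 (SE; adjusted p = 2.21e-07).

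Col17a1 (3.42 ± 0.397, adjusted p = 1.93e-05), the cartilage collagen Col2a1 (2.55 ± 0.347, adjusted p = 6.84e-05), the fibrillar Col27a1 (2.41 ± 0.132, adjusted p = 7.46e-08) and Col9a3 (2.19 ± 0.282, adjusted p = 4.28e-05) were also higher in cerebellum. Col8a2, a short chain collagen of the corneal endothelium, was higher by 3.41 ± 0.836 (adjusted p = 0.00467), but stood at 13.12 and 28.68 CPM in the choroid plexus-rich libraries 2 and 4 and at 1.721 and 1.931 CPM in libraries 1 and 3. Without libraries 2 and 4 its difference was 0.78 (adjusted p = 0.167). Its relative Col8a1 showed the same pattern, with 9.633 and 29.46 CPM in libraries 2 and 4 and 2.434 and 1.004 CPM in libraries 1 and 3. Over all collagens, 24 were called without libraries 2 and 4, 19 of them shared, with 13 higher and 11 lower in place of 16 and 8. Of all 18019 genes tested in that fit, 3362 were called. With Tol in place of WT libraries, 18 were called, 13 of them shared, where 2146 of all 18377 genes tested were called.

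Lower in cerebellum were Col25a1 (-3.50 ± 0.477, adjusted p = 6.87e-05), Col6a4 (-3.03 ± 0.336, adjusted p = 1.35e-05), Col6a1 (-2.44 ± 0.18, adjusted p = 5.7e-07), Col26a1 (-2.08 ± 0.344, adjusted p = 0.000302), Col24a1 (-1.72 ± 0.611, adjusted p = 0.0326) and Col6a2 (-1.34 ± 0.258, adjusted p = 0.000945). Type VI was thus the class with most calls downward, 3 of 6, and Col6a6 was called higher (1.12 ± 0.316, adjusted p = 0.0106). Without WT 2 and WT 4, Col24a1 (-1.52, adjusted p = 0.0783) and Col6a6 (1.003, adjusted p = 0.0634) were no longer called, and Col6a5 was called lower (-6.64, adjusted p = 0.000105). Col6a5 had 0 counts in both Cerebellum WT 1 and WT 3, so its fitted fold is no bound. Over 22 alternatives the adjusted p of Col24a1 ran from 0.00811 to 0.506 and was under 0.05 in 15. Col6a1 lay within 7.53 to 8.948 CPM in WT cerebellum and within 31.83 to 53.71 CPM in WT cerebrum. The low Col25a1 of cerebellum held in the WT libraries, which stood at 8.898, 8.631, 2.356 and 1.135 CPM in libraries 1 to 4, and in Cerebellum Tol 1 (3.917 CPM). Cerebellum Tol 2 had 121.4 CPM, above every cerebrum library, and with Tol in place of WT libraries the difference was -0.02 (adjusted p = 1.0). Beside it, Col11a1 stood at 38.23 CPM and Col24a1 at 12.54 CPM in Cerebellum Tol 2, against 1.525 to 9.938 CPM and 0.2061 to 6.421 CPM in the other cerebellum libraries. The part of the low cerebellar neuron signal in these values was not tested.

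Thymus and cerebellum differed in 30 of 44 collagens, with 12 called higher in thymus (27.4% of all genes tested) and 18 called lower (29.7% of all genes). All 6 type VI chains were called higher in thymus, namely Col6a5 (4.68 ± 0.696, adjusted p = 3.61e-05), Col6a4 (3.51 ± 0.335, adjusted p = 5.37e-07), Col6a2 (3.42 ± 0.266, adjusted p = 6.68e-08), Col6a6 (3.37 ± 0.262, adjusted p = 6.65e-08), Col6a1 (3.02 ± 0.182, adjusted p = 5.1e-09) and Col6a3 (2.82 ± 0.316, adjusted p = 2.55e-06). Col6a5 was under the floor in 2 of the 4 WT cerebellum libraries, at 0 counts, so its fitted fold is no bound. Col3a1 (3.56 ± 0.243, adjusted p = 1.77e-08) and Col14a1 (3.20 ± 0.376, adjusted p = 3.98e-06) completed the leading 6 with Col6a5, Col6a4, Col6a2 and Col6a6.

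The 6 collagens with the largest differences downward in thymus were Col11a1 (-5.34 ± 0.687, adjusted p = 9.56e-06), Col19a1 (-4.64 ± 0.266, adjusted p = 3.11e-09), Col9a3 (-4.57 ± 0.323, adjusted p = 2.56e-08), Col24a1 (-4.50 ± 0.865, adjusted p = 0.000336), Col9a2 (-3.92 ± 0.21, adjusted p = 1.58e-09) and Col25a1 (-3.81 ± 0.648, adjusted p = 0.00012). Of the 6 type IV chains, Col4a3, Col4a4, Col4a5 and Col4a6, whose networks are known from kidney and other specialized basement membranes, were called lower in thymus, whereas Col4a1 was higher by 0.94 ± 0.105 and Col4a2 by 0.64 ± 0.162, under the minimum fold. With the dependence on length and GC content removed, the median was 0.99 in place of -0.38 and the split was 22 higher and 11 lower in place of 12 and 18, with 23 of the 30 calls shared. In that fit 10607 of all 17413 genes tested were called. Without the choroid plexus-rich cerebellum libraries 27 were called, 26 of them shared, with 13 higher and 14 lower. Of all 18019 genes tested in that fit, 10248 were called. Col4a4 (-0.76, adjusted p = 0.0436) then missed the minimum fold and Col4a1 (1.09, adjusted p = 4.53e-06) passed it. With Tol in place of WT libraries the median was -0.81 and 29 were called, 27 of them shared. Of all 18377 genes tested with these libraries, 10509 were called.

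**Figure D3:**
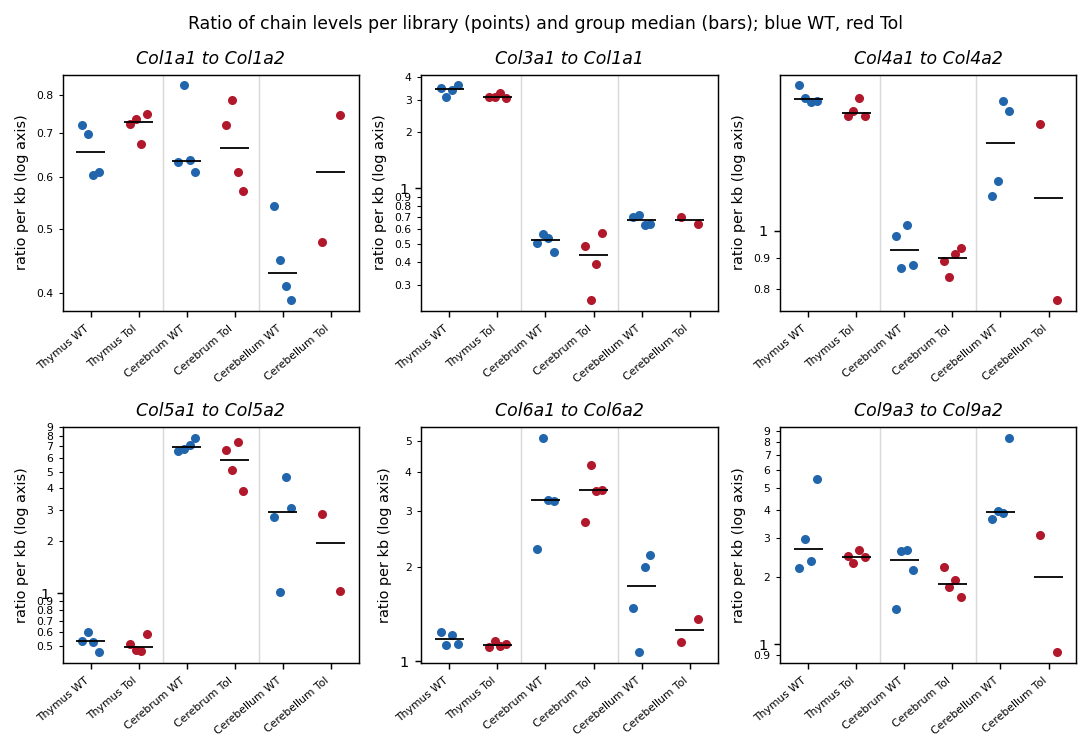
Ratio of the levels per kb of 6 pairs of collagen chains (log y axis) in each library, as points for WT (blue) and Tol (red) with bars at the group medians, by organ and genotype (x axis). The median ratio of Col3a1 to Col1a1 in WT is 3.42 in thymus, 0.522 in cerebrum and 0.671 in cerebellum.

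Chains that build the same protein, or the same fibrils, were set against each other per kb. The ratio of Col3a1 to Col1a1 ran from 3.1 to 3.59 in WT thymus, from 0.452 to 0.565 in WT cerebrum and from 0.635 to 0.714 in WT cerebellum. The 3 organs of WT did not overlap, and Tol libraries ran from 3.07 to 3.26 in thymus and 0.641 to 0.702 in cerebellum, and from 0.249 to 0.574 in cerebrum. The ratio of Col5a1 to Col5a2, the chains of type V collagen that start fibrils, had a median of 0.533 in WT thymus, 6.91 in WT cerebrum and 2.92 in WT cerebellum. Col4a1 to Col4a2 had medians of 1.65, 0.93 and 1.4, with 1.63 to 1.74 in WT thymus above 0.866 to 1.02 in WT cerebrum. Col6a1 to Col6a2 had medians of 1.18, 3.25 and 1.74. These ratios are descriptions and depend on the transcript taken for the length.

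The second question was whether Col1a1, beside which the cassette lies, and the other collagens differed between Tol and WT. Within each organ a gene was called at an adjusted p under 0.05 (edgeR quasi-likelihood test, Benjamini-Hochberg adjustment), without a minimum fold. Col1a1 was not called in any organ.

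In thymus, Col1a1 stood at 21.33, 19.43, 26.14 and 27.61 CPM in Tol libraries 1 to 4 and at 35.39, 44.65, 22.2 and 37.77 CPM in WT libraries 1 to 4. WT library 3 lay within the Tol range, so the groups overlapped. The log2 difference was -0.57 ± 0.177 (SE; adjusted p = 0.11). In cerebrum, Col1a1 stood at 13.59, 21.08, 7.449 and 11.14 CPM in Tol libraries 1 to 4 and at 10.74, 4.245, 5.345 and 7.913 CPM in WT libraries 1 to 4. The Tol values lay mostly higher but overlapped, with a log2 difference of 0.91 ± 0.354 (adjusted p = 0.446). In cerebellum, Col1a1 stood at 23.34 and 69.49 CPM in Tol libraries 1 and 2 and at 16.54, 16.78, 14.06 and 12.96 CPM in WT libraries 1 to 4. Both Tol values lay above all WT values, with a log2 difference of 1.66 ± 0.402 (adjusted p = 0.957), and without Cerebellum Tol 2 the difference was 0.63 (adjusted p = 0.979).

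Col1a2, on another chromosome, had differences of the same sign in each organ. Its log2 difference was -0.68 ± 0.164 in thymus (adjusted p = 0.0832), 0.83 ± 0.348 in cerebrum (adjusted p = 0.477) and 1.10 ± 0.257 in cerebellum (adjusted p = 0.957), where it was 0.53 without Cerebellum Tol 2 (adjusted p = 0.979). The count ratio of Col1a1 to Col1a2 was compared directly on the log2 scale. It was higher in Tol by 0.13 in thymus, where Tol libraries averaged -0.33 ± 0.0656 (SD, n = 4) and WT libraries -0.46 ± 0.13 (two-sided exact permutation test, p = 0.143, adjusted over the 3 organs 0.3). In cerebrum the difference was -0.01 (Tol -0.44 ± 0.212, WT -0.43 ± 0.202, SD, n = 4 each; exact permutation p = 1.0, adjusted 1.0). In cerebellum it was 0.43 (Tol -0.60 ± 0.455, n = 2; WT -1.03 ± 0.209, n = 4; exact permutation p = 0.2, adjusted 0.3), and there the test could not go below 0.0667. Without Cerebellum Tol 2 this difference was 0.10 (exact permutation p = 0.8). A difference of Col1a1 apart from Col1a2 was thus not detected with these libraries, and in thymus and cerebrum the smallest p the design allows is 0.0286.

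**Figure D4:**
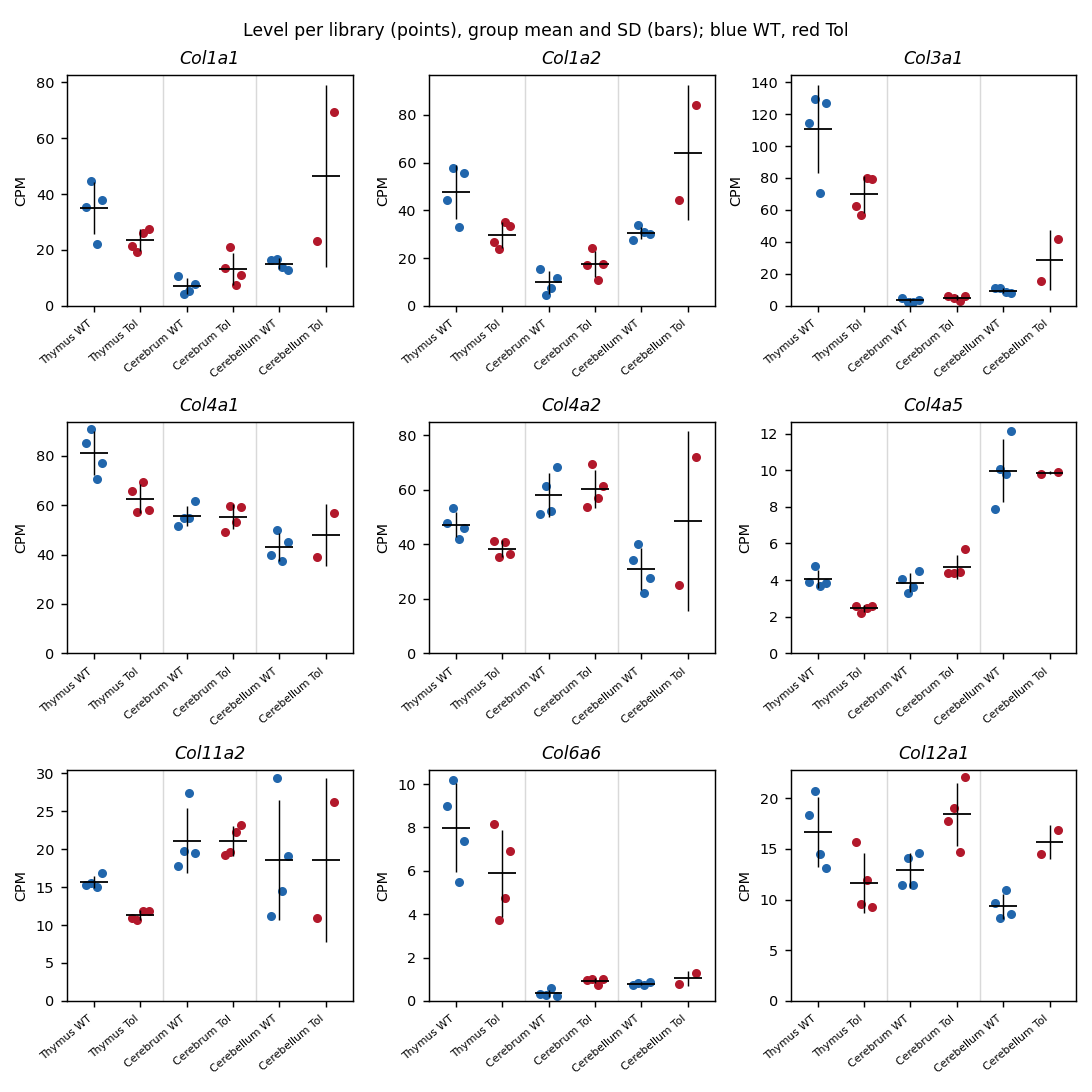
CPM (y axis, from 0) of Col1a1, Col1a2, Col3a1, Col4a1, Col4a2, Col4a5, Col11a2, Col6a6 and Col12a1 in each library, as points for WT (blue) and Tol (red), with bars for the group mean and SD, by organ and genotype (x axis). Thymus Tol libraries lie below WT for Col11a2 (10.64 to 11.92 against 15.01 to 16.81 CPM), and Cerebellum Tol 2 is the highest cerebellum library for Col1a1 (69.49 CPM).

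Most collagens had lower estimates in Tol thymus, although few passed the test. Of 39 collagens that passed the filter on low counts, 33 had a lower estimate in Tol and 6 a higher one, with a median log2 difference of -0.32 against 0.01 over the 16248 genes tested. A single collagen, Col11a2, was called and fell, where 0.0985% of all genes were called. At an unadjusted p under 0.05, 18 of the 39 were lower (11.1% of all genes), and for 6 of them the Tol and WT libraries did not overlap (5.5% of all genes). DESeq2, in place of edgeR, called 10 of the 39, all lower, against 7.79% of all genes, namely Col1a1, Col1a2, Col3a1, Col4a1, Col4a2, Col4a5, Col5a1, Col5a2, Col11a2 and Col18a1. The summed collagen level was 542.7 ± 50.98 CPM for Tol and 716.6 ± 118.4 CPM for WT (SD, n = 4), with ranges of 468.5 to 584.6 and 560.6 to 848.6 that overlapped.

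Col11a2 encodes a chain of type XI collagen, a minor component of cartilage fibrils. It stood at 10.93, 10.64, 11.92 and 11.84 CPM in thymus Tol libraries 1 to 4 and at 15.32, 15.59, 15.01 and 16.81 CPM in WT libraries 1 to 4. The groups were separate and each was tight. Col11a2 fell by 0.47 on the log2 scale (SE 0.0737; edgeR adjusted p = 0.0453). Over 16 alternatives its adjusted p ran from 0.00027 to 0.44 and was under 0.05 in 7, and without any one of Thymus Tol 2, Tol 4 or WT 1, 2, 3 or 4 it was no longer called, at -0.49 to -0.44.

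Among type IV collagens, Col4a5 stood at 2.583, 2.211, 2.458 and 2.579 CPM in Tol libraries 1 to 4 and at 3.901, 4.795, 3.674 and 3.858 CPM in WT libraries 1 to 4. The groups did not overlap, and the difference of -0.71 ± 0.139 missed the threshold (adjusted p = 0.064). Tol libraries held Col4a1 at 57.29 to 69.2 CPM, below the 70.54 to 90.86 CPM of WT libraries, a difference of -0.37 ± 0.0871 (adjusted p = 0.0826). For its neighbor Col4a2, Tol ran from 35.46 to 41.3 CPM, below WT at 42.07 to 53.23 CPM, a difference of -0.29 ± 0.0789 (adjusted p = 0.0862). Col4a1 and Col4a2, which share the start region shown above, thus both had Tol libraries wholly below WT. Col4a6 did as well, with Tol at 0.1382 to 0.3688 CPM and WT at 0.4658 to 1.107 CPM (-1.31 ± 0.361, adjusted p = 0.0885). Its level was low, at 3 to 12 counts in Tol and 9 to 37 in WT.

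Of the fibrillar collagens, Col5a2 was separate, with Tol at 13.77 to 16.64 CPM and WT at 17.03 to 23.44 CPM (-0.48 ± 0.101, adjusted p = 0.0704). Col3a1 stood at 62.28, 56.92, 79.98 and 79.57 CPM in Tol and at 114.6, 129.7, 70.64 and 127.2 CPM in WT. As for Col1a1, WT library 3 was the low WT library and the groups overlapped (-0.66 ± 0.17, adjusted p = 0.0858). Type VI had 6 of 6 estimates lower, with Col6a1 at -0.32 ± 0.123 (adjusted p = 0.154), and type IV had 5 of 5 tested lower. The FACIT class was mixed, with 5 lower and 4 higher, and so was the transmembrane class, with 2 lower and 1 higher. Both multiplexins had lower estimates, Col18a1 at -0.38 ± 0.11 (adjusted p = 0.0957) and Col15a1 at -0.20 ± 0.0904 (adjusted p = 0.198).

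The count of calls moved with single libraries. Without Thymus Tol 3 Col11a2 was again the 1 call, and without any of the other 6 libraries apart from Thymus Tol 1 it was 0. Without Thymus Tol 1, 9 collagens were called, namely Col1a2, Col3a1, Col4a1, Col4a2, Col4a5, Col5a1, Col5a2, Col11a2 and Col12a1, all lower in Tol. In that fit 2978 of all 16370 genes tested were called. Collagen transcripts are long, with a median of 5930 bases against 2973 bases for all genes tested. After removal of the dependence on length and GC content, the median difference was -0.24, 16 collagens had an unadjusted p under 0.05, 0 were called, and Col11a2 stood at -0.37 (adjusted p = 0.0748).

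Cell type markers were measured in the same libraries. The 7 fibroblast genes summed to 54.16 to 76.65 CPM in thymus Tol and 63.24 to 97.4 CPM in thymus WT, none of them under the floor in every library, and 6 of 6 tested had lower estimates in Tol, 3 with an unadjusted p under 0.05. The 8 endothelial genes summed to 168.7 to 179.1 CPM (Tol) and 169.4 to 177.1 CPM (WT). Pecam1 made up most of this sum (123.5 to 135.3 against 119.3 to 130.5 CPM). Of the 8, 6 had lower and 2 higher estimates in Tol (median -0.15). An unadjusted p under 0.05 was reached by 2, both lower, where 11.1% of all genes were lower at that p. The 9 pericyte and smooth muscle genes summed to 208.4 to 241.6 CPM and 200.9 to 270.9 CPM. The 6 adipocyte genes varied from 20.98 to 102.8 CPM with overlap. The sum of the 4 astrocyte genes was lower in Tol without overlap (55.86 to 64.53 against 68.13 to 70.74 CPM). So was that of the 4 oligodendrocyte genes (137.5 to 149.7 against 151.3 to 163.0 CPM), with Mog under the floor in every thymus library. Most of it was Mbp (132.6 to 146.2 against 147.6 to 160.0 CPM). The sum of the 6 skeletal muscle genes was higher (20.12 to 22.87 against 15.84 to 18.89 CPM). Most of it was Mylpf (17.06 to 19.41 against 12.17 to 15.32 CPM), whereas Acta1 was lower (0.1738 to 0.2458 against 0.282 to 0.6296 CPM). Of the 4 muscle genes tested, 3 had higher estimates and 1 a lower one. The 8 meningeal genes, of which Slc22a6 was under the floor in every thymus library, summed to 7.972 to 9.894 CPM (Tol) and 10.09 to 11.33 CPM (WT). Of the 6 tested, 3 had higher and 3 lower estimates in Tol (median -0.03). Among the lower ones was Aldh1a2 (0.5987 to 1.649 against 1.986 to 3.649 CPM). Other marker lists lay higher in Tol by estimate, with 4 of 4 tested cartilage and bone genes (median 0.35) and 5 of 6 thymic epithelium genes (median 0.10). The 9 cartilage and bone genes, of which Matn3 and Snorc were under the floor in every thymus library, summed to 9.178 to 11.7 CPM (Tol) and 8.494 to 9.212 CPM (WT), and the 6 thymic epithelium genes to 638.6 to 722.4 CPM (Tol) and 618.2 to 658.3 CPM (WT). The part of these cell types in the collagen levels was not tested.

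In cerebrum, 42 collagens were tested and 0 were called, as among all 15596 genes (0% called). Estimates were higher in Tol for 30 and lower for 12, with a median of 0.13 against -0.0049 over all genes. At an unadjusted p under 0.05, 5 collagens were higher in Tol (4.81% of all genes), and 2 of these, Col6a6 and Col12a1, were higher without overlap (3.29% of all genes). The other 3 were Col8a1, Col1a1 and Col1a2. DESeq2 called 0 of the 42 as well.

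The lowest p belonged to Col6a6. It stood at 0.9705, 1.017, 0.74 and 1.013 CPM in Tol libraries 1 to 4 and at 0.3253, 0.2573, 0.6005 and 0.2398 CPM in WT libraries 1 to 4. The groups were separate at a low level, 13 to 20 counts in Tol and 4 to 10 in WT, with a log2 difference of 1.37 ± 0.322 (adjusted p = 0.238). Col12a1, a FACIT collagen of dense connective tissue, stood at 17.71, 19.05, 14.7 and 22.12 CPM in Tol and at 11.39, 14.09, 11.47 and 14.63 CPM in WT. The lowest Tol library was just above the highest WT library, and the difference was 0.51 ± 0.143 (adjusted p = 0.303). Col8a1 followed at 0.57 ± 0.215 (adjusted p = 0.437), with ranges of 3.692 to 6.599 CPM and 2.711 to 3.924 CPM that overlapped.

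Type IV collagens as a class were close to even between the genotypes in cerebrum, with 3 estimates higher and 3 lower and a class median of 0.01. The Tol range of Col4a1 was 49.06 to 59.76 CPM and its WT range 51.62 to 61.51 CPM. The neuronal Col25a1 also overlapped, with Tol at 53.67 to 74.47 CPM and WT at 56.66 to 61.91 CPM. The 8 meningeal genes summed to 66.34 to 101.9 CPM (Tol) and 32.1 to 105.7 CPM (WT), with WT 2 (32.1) and WT 3 (36.33) lowest, and 8 of 8 had higher estimates in Tol (median 0.42). Cerebrum WT 2 and WT 3 were also the lowest libraries for Col1a1, at 4.245 and 5.345 CPM, and for Col1a2, at 4.631 and 7.567 CPM. The part of meninges in these values was not tested.

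**Figure D5:**
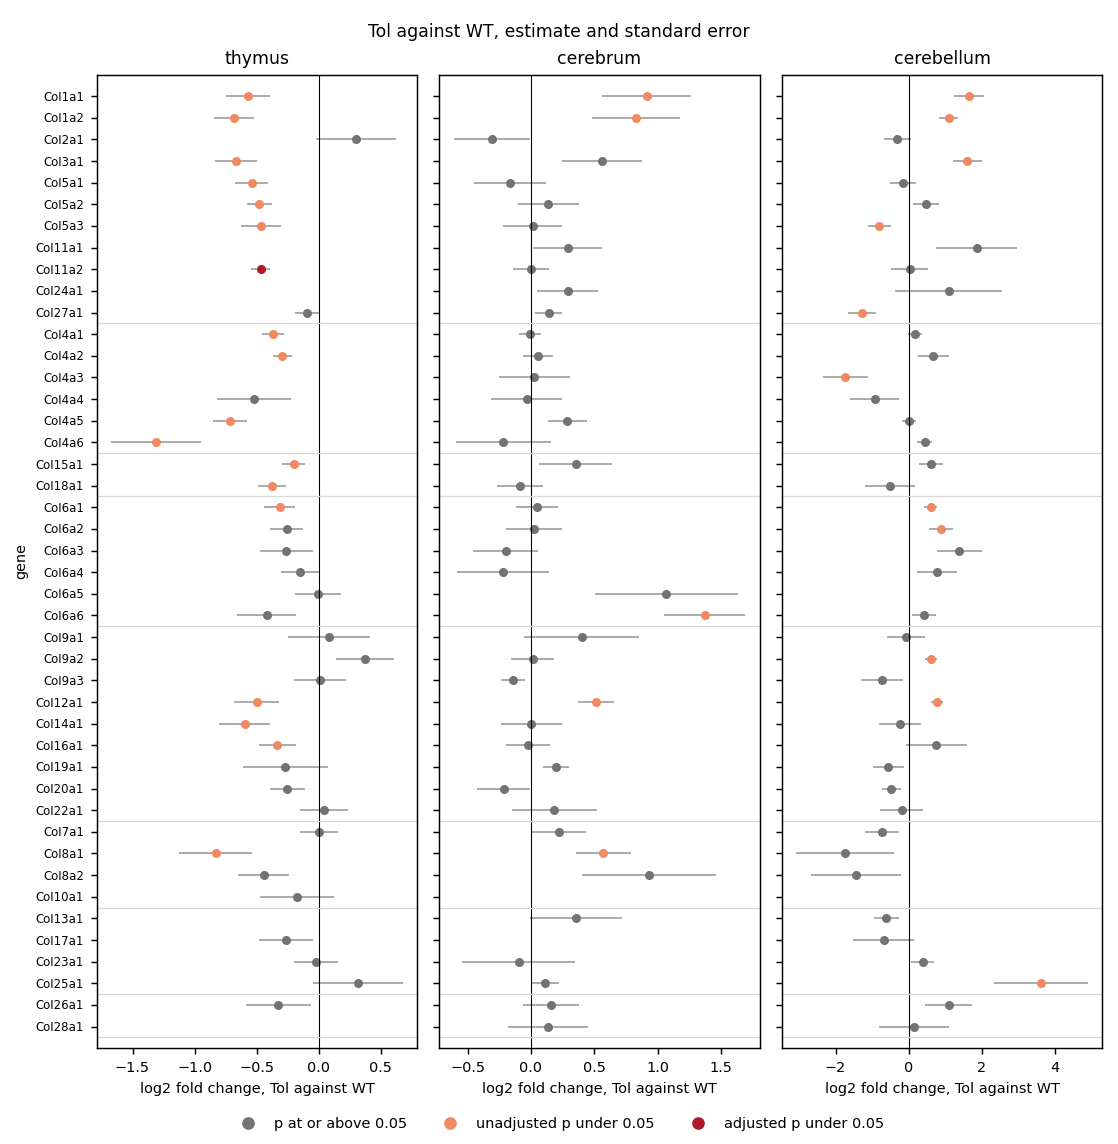
Log2 fold change of Tol against WT (x axis, with a scale of its own in each panel) with its standard error for each collagen tested (y axis) in thymus, cerebrum and cerebellum. In thymus 33 of 39 estimates lie below 0 and Col11a2 is called, whereas in cerebrum 30 of 42 and in cerebellum 24 of 42 lie above 0 and 0 are called.

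In cerebellum, with 2 Tol libraries, 42 collagens were tested and 0 were called, as among all 16662 genes (0% called), and DESeq2 called 0 of the 42. Estimates were higher in Tol for 24 and lower for 18, with a median of 0.16 against 0.01 over all genes. At an unadjusted p under 0.05, 8 were higher (1.94% of all genes) and 3 lower (1.22% of all genes), and 8 were higher without overlap (5.2% of all genes) and 4 lower (5.26% of all genes). The 3 lower ones, named after their values were seen, were Col27a1 (-1.27 ± 0.377), Col4a3 (-1.73 ± 0.628) and Col5a3 (-0.80 ± 0.314), each with an adjusted p of 0.957. Without WT 2 and WT 4, which had 88 and 101 counts of Col4a3 against 34 and 36 in WT 1 and WT 3, the difference of Col4a3 was -0.78, and that of Col5a3 was -0.55. Without Cerebellum Tol 2, Col27a1 stood at -0.78 and Col5a3 at -0.46. By class, 5 of 5 type VI chains tested had higher estimates, whereas Col6a5, at 0 to 17 counts in cerebellum, did not pass the filter. Without Cerebellum Tol 2 the estimate of Col6a4 was lower (-0.38) and Col6a6 had nearly no difference (-0.0067).

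Col12a1 stood at 14.47 and 16.9 CPM in Tol and at 9.611, 8.151, 10.93 and 8.599 CPM in WT. Both Tol libraries lay above WT, with a difference of 0.78 ± 0.173 (adjusted p = 0.957), and of 0.63 without Cerebellum Tol 2. Both Tol libraries held Col3a1 above WT, at 15.38 and 41.78 CPM against 7.813 to 11.25 CPM (1.61 ± 0.394, adjusted p = 0.957), and at 0.68 without Cerebellum Tol 2.

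Cerebellum Tol 2 was the higher of the pair for Col1a1, Col1a2 (84.17 against 44.16 CPM) and Col3a1, and the lower for Col18a1 (18.83 against 107.9 CPM) and Col9a3 (12.87 against 40.82 CPM). Without it, 14 estimates were higher and 29 lower, with a median of -0.14, and the median thus changed sign. Without the choroid plexus-rich WT 2 and WT 4, the median was 0.53, and Col8a2 stood at 1.18 in place of -1.43 and Col8a1 at 0.86 in place of -1.73. The 8 meningeal genes summed to 212.9 and 290.1 CPM (Tol) and 122.3 to 223.3 CPM (WT), with 8 of 8 estimates higher, 6 of them with an unadjusted p under 0.05 (median 1.45, and 1.11 without Cerebellum Tol 2). Igf2 made up most of each sum (147.1 and 196.9 against 83.99 to 209.0 CPM), and its highest value was in WT 4. The part of meninges, choroid plexus or the low neuronal signal in the collagen values was not tested.

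The difference of the genotype effects between cerebrum and thymus was tested as an interaction over 16 libraries. Of 44 collagens, 38 had a positive interaction, that is, a more positive Tol difference in cerebrum, and 6 a negative one, with a median of 0.45 against -0.01 over all genes. None was called by edgeR (0 of 44, against 0.107% of all genes), 12 had an unadjusted p under 0.05, all positive (6.64% of all genes), and DESeq2 called 6 (2.78% of all genes), namely Col1a1, Col1a2, Col3a1, Col4a5, Col6a6 and Col12a1. The lowest p belonged to Col4a5 (0.995 ± 0.203, adjusted p = 0.0743), followed by Col6a6 (1.79 ± 0.46, adjusted p = 0.113) and Col12a1 (1.01 ± 0.261, adjusted p = 0.113). Col1a1 had an interaction of 1.47 ± 0.42 (adjusted p = 0.128) and Col1a2 of 1.51 ± 0.406 (adjusted p = 0.116). Without Thymus Tol 1 edgeR called 3, Col4a5, Col6a6 and Col12a1, where 1116 of all 17937 genes tested were called.

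Genes that make, assemble, bind and break down collagen were described from lists. None of their genes was called in any Tol comparison. In thymus, 12 of 12 tested genes of procollagen processing and cross-linking had lower estimates in Tol, 4 of them with an unadjusted p under 0.05 (11.1% of all genes were lower at that p), including the cross-linking enzyme Lox (-0.56 ± 0.163, adjusted p = 0.0956). All 8 tested small leucine-rich proteoglycans, which bind collagen fibrils, were lower by estimate, 6 with an unadjusted p under 0.05 (median -0.48), with Bgn at -0.40 ± 0.112 (adjusted p = 0.0926) and Dcn at -0.52 ± 0.166 (adjusted p = 0.114). All 17 other fibrous matrix genes were lower by estimate, 10 with an unadjusted p under 0.05 (median -0.38), with the matricellular Thbs1 at -1.78 ± 0.415 (adjusted p = 0.0814). Laminins and partners were lower by estimate in 12 of 13, with the basement membrane linker Nid1 at 13.47 ± 3.85 CPM for Tol and 23.93 ± 6.0 CPM for WT (SD, n = 4).

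Chain folding and modification gave a less one-sided picture in thymus, with 15 of 20 lower by estimate and 5 higher, and a median of -0.12. P4ha1, a prolyl hydroxylase subunit that stabilizes the collagen helix, was nearest to a call (-0.48 ± 0.0817, adjusted p = 0.0548), and had a difference of -0.58 ± 0.0966 in cerebrum (adjusted p = 0.157). P3h4, which serves lysine modification of collagen, was at 0.33 ± 0.104 in thymus (adjusted p = 0.109). Collagen receptors were lower by estimate in 8 of 10, with the integrin chain Itga10 at -0.70 ± 0.153 (adjusted p = 0.0733). Collagen degradation was even, with 6 lower and 5 higher.

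In cerebrum the lists were mixed, with laminins and partners higher by estimate in 12 of 15 (the proteoglycan Hspg2 at 0.41 ± 0.113, adjusted p = 0.295) and folding genes lower in 16 of 20. In cerebellum, 8 of 8 small leucine-rich proteoglycans were higher by estimate (median 0.62), with Ogn at 1.34 ± 0.325 and Dcn at 0.59 ± 0.152 (both adjusted p = 0.957). Without Cerebellum Tol 2, 6 of the 8 proteoglycans were higher by estimate (median 0.36), with Ogn at 1.05 and Dcn at 0.49. The interaction was positive for 17 of 17 other fibrous matrix genes (median 0.44), with no call.

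Between WT organs, 6 of 13 processing genes were called higher in thymus than in cerebrum, where 29.7% of all genes were, and 4 lower, where 30.2% were, with Lox higher by 3.73 ± 0.308 (adjusted p = 1.17e-07) and the procollagen proteinase Bmp1 lower (-2.41 ± 0.22, adjusted p = 3.16e-07). Cerebellum against cerebrum had 6 of the 13 called higher (8.34% of all genes) and 0 lower (10.2% of all genes), but 2 higher without WT 2 and WT 4, with Tll1, a relative of Bmp1, higher by 3.26 ± 0.231 (adjusted p = 4.33e-07). Laminins split by chain, with Lamb3 higher in thymus than in cerebrum by 4.60 ± 0.179 (adjusted p = 6.33e-11) and Lamc3 lower (-4.36 ± 0.168, adjusted p = 5.94e-11). Serpinh1, the chaperone of collagen folding, was higher in thymus by 1.27 ± 0.128 (adjusted p = 8.86e-07).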

How the data were processed

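Poly(A) RNA of frozen tissue was prepared with the TruSeq Stranded mRNA Kit and sequenced single-end. The authors deposited estimated counts per gene, made with Salmon 0.14.1 against GRCm38 transcripts plus the Tol sequence, and used edgeR 3.9 for their own tests (per the labels and the study's methods). Salmon splits reads between similar transcripts, so its estimates need not be whole. They were taken as whole numbers, with any fraction cut off. Totals ran from 14543698 to 34776973 counts per library, and 0 value columns were left unused. The columns marked MRT were read as Tol.

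Counts were tested with edgeR 4.0.16 in R 4.3.3 (filterByExpr, TMM normalization, quasi-likelihood F test, Benjamini-Hochberg adjustment over all genes tested), within each organ for Tol against WT, over the thymus and cerebrum libraries for the interaction, and over the 12 WT libraries for organs. Calls needed an adjusted p under 0.05 and, between organs, an absolute log2 fold change over 1. SE is the fold change divided by the square root of F. Levels are CPM scaled by TMM over all 22 libraries, and levels per kb used the longest coding transcript (GENCODE). The floor was 3 counts. The floor covers counting error only, whereas SD and SE include the spread between libraries. Scripts were tested on simulated data. DESeq2 1.42.0, other filters and scalings, removal of the length and GC trend, a replicate block, the Tol in place of the WT libraries between organs, and leaving out each library were tried as alternatives.

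The members and lists were chosen with earlier results of these data known. Col1a1 was given in each organ, called members up to 6 in each direction by size or, with 2 or fewer called, the 3 with the lowest p, chains of one protein, and up to 2 genes per direction of each list; other members were named after their values were seen. The test of the Col1a1 to Col1a2 ratio and the removal of the choroid plexus-rich libraries were chosen after seeing the data. Same-numbered Tol and WT libraries did not deviate together in every pair, so the numbers were not treated as pairs.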

Additional observations from a re-analysis of the deposited data

Results flagged for a closer look

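In 170 groups of 4 libraries, each for 1 collagen or sum, 5 (2.94%) held a library far from the other 3 by Dixon's test, where chance gives about 1 in 20. Col4a5 stood at 5.687 CPM in Cerebrum Tol 4, above 4.367 to 4.44 CPM in the other 3. Col6a6 stood at 0.74 CPM in Cerebrum Tol 3, below 0.9705 to 1.017 CPM. Col10a1 stood at 0.2763 CPM in Thymus Tol 2, below 0.5919 to 0.6556 CPM. Col17a1 stood at 6.067 CPM in Cerebellum WT 4, above 3.167 to 3.662 CPM, and all collagens together at 624.5 CPM in the same library, above 505.9 to 515.6 CPM. Cerebellum WT 4 was also the library with the highest choroid plexus signal (4762 CPM).

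The estimates of Col4a6 had opposite signs in thymus and cerebellum, and neither passed the test. Every thymus Tol library lay below WT in CPM, at a log2 difference of -1.31 (edgeR adjusted p = 0.0885). The thymus level was low, at 3 to 12 counts in Tol and 9 to 37 in WT. Both cerebellum Tol libraries lay above WT, at 0.4377 (edgeR adjusted p = 0.957). The difference between the organs was not tested.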

How the results depend on the processing

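The count of collagens called in Tol against WT thymus, 1 in the edgeR fit, was 10 with DESeq2, 2 without the filter on low counts, 2 with at least 10 counts in every library, 0 with the length and GC trend removed and 0 with all 22 libraries in one fit. Over all genes the calls were 16 of 16248 (edgeR fit), 1266 of 16248 (DESeq2) and 130 of 26851 (no filter). They were 85 of 14968 (at least 10 counts), 20 of 16248 (trend removed) and 29 of 18946 (all 22 libraries). Leaving out each library gave 0 to 9, the 9 without Thymus Tol 1, where 2978 of all 16370 genes tested were called. With a replicate block the count was 0 (5 of all 16248 genes), and Col11a2 had an edgeR adjusted p of 0.12. The block changed no other count by over 1.5 times, with 29, 24 and 30 called between WT organs. Over all 17413 genes the calls between WT organs were then 10434, 3170 and 9894. The deviations of same-numbered Tol and WT libraries from their group means correlated at -0.16 to 0.069 in thymus. They correlated at -0.382 to 0.439 in cerebrum, and at -0.201 and 0.67 in cerebellum. Whether same-numbered libraries share more than a number cannot be told from these values. The interaction, with 0 called by edgeR, had 6 with DESeq2 (495 of all 17774 genes). It had 1 with at least 10 counts in every library (48 of 12983 genes) and 0 to 3 when each library was left out. The 3 came without Thymus Tol 1, where 1116 of all 17937 genes tested were called. Between WT organs, at least 10 counts in every library left 17 called for thymus against cerebrum (6852 of all 13033 genes). For thymus against cerebellum it left 19 (6418 of 13033 genes). Leaving out each library gave 27 to 29 and 30 to 32 for these, 21 to 27 for cerebellum against cerebrum, and 0 in every case for Tol against WT in cerebrum and cerebellum, where 5 and 11 collagens had an unadjusted p under 0.05 with edgeR. Col1a1 in thymus passed the threshold with DESeq2 (-0.57, adjusted p = 0.0244). The Col1a1 to Col1a2 log2 ratio in cerebrum changed sign without Cerebrum Tol 3, Tol 4 or WT 2, within a range of -0.09123 to 0.08815 over the libraries left out in turn. For these changes the cause was not tested, apart from fewer genes or libraries by construction.

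Precision was limited by the spread between libraries, with a biological coefficient of variation of 11.2% in thymus, 16.6% in cerebrum and 33.2% in cerebellum, where Tol had 2 libraries. With Tol 2 left out, the single remaining cerebellum Tol library was assumed to vary like WT.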
